A study of Mus musculus with 6 samples.

Results

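The genes described are the nuclear-coded subunits of respiratory complexes II, III, IV and V, together with cytochrome c, whose RNA was measured in embryonic mouse heads at day 9.5 of development. They are the genes on the array named Sdha, Sdhb, Sdhc, Sdhd, Cyc1 or Cycs, or with a name that begins with Uqcr, with Atp5, or with Cox and a digit from 4 to 8, leaving out Cox4i2. This choice uses names and no measured value. It gave 48 genes on 73 probes: 4 of complex II, 9 of complex III, cytochrome c itself, 17 of complex IV and 17 of complex V. Of these, 45 had signal enough to be tested, among 14906 genes tested in all.

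The series compared heads of embryos null for Arid3b, a gene for a transcription regulator that binds AT-rich DNA, with heads of wild type embryos, using Agilent one-colour arrays. There were 3 Arid3b-null and 3 wild type arrays, each of RNA pooled from 4 embryos of 1 genotype, and the dissected heads included the first branchial arch. How the null allele was made and the strain of the embryos are not given in the labels, and no other allele or treatment is named for either group. The labels do not say whether the pools of a genotype came from different litters. The p-values below weigh each difference against the spread among these pools, which may not cover the spread between litters.

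The respiratory chain sits in the inner mitochondrial membrane. Complex II (succinate dehydrogenase) also belongs to the tricarboxylic acid cycle and passes electrons from succinate to ubiquinone, complex III hands them from ubiquinol to cytochrome c, and complex IV (cytochrome c oxidase) delivers them to oxygen. Complexes III and IV pump protons, and complex V (ATP synthase) lets the protons back through a turning ring of c subunits to make ATP. All subunits of complex II are coded in the nucleus, while complexes III, IV and V also hold subunits coded in mitochondrial DNA, which the naming rule does not take in. Cytochrome c is the soluble carrier between complexes III and IV and, once released from mitochondria, takes part in starting apoptosis.

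Values are log2 of the processed signal relative to the 75th percentile of the same array, so a difference of 1 is a doubling, and differences are Arid3b-null minus wild type, each ± its limma standard error with n = 3 arrays in each group. A level belongs to its probe, so levels of different genes were not read as amounts of RNA; the rank of a probe's signal is used below to group or choose probes by brightness. A gene was said to change where its limma p, adjusted by Benjamini-Hochberg over all 14906 genes, was under 0.05. Between 67.9% and 70.3% of the spots of an array were well above background, 0 were saturated, and each array's 75th percentile was between 626 and 977 units of intensity. Each slide held the null and the wild type array of 1 replicate number, but null arrays always took position 2 and wild type arrays position 1, so an effect of position cannot be told apart from one of genotype. The targeted gene was lower: Arid3b had 1.27, 1.06 and 1.44 on the null arrays, against 1.98, 2.26 and 3.09 on the wild type arrays, 2.28-fold lower (-1.19 ± 0.29, limma adjusted p = 0.0265). Its other kept probes had differences of -1.37 and -2.33, and the mean over its probes gave -1.63. The call was lost without null array 1, 2 or 3 (adjusted p from 0.069 to 0.0861) and with no filter on dim probes (0.0599). All 14 markers of head tissues were measured, of which 3 fell and 2 rose, while 11.2% of all genes tested fell and 12.3% rose. The median difference of the 14 was 0.24, with 6 below 0 and 8 above 0.

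Most subunits had less signal in the null heads, by amounts that mostly did not pass the test. Of the 45 genes tested, 39 had a difference below 0 and 6 above 0, with a median of -0.48, beside a median of -0.04 over all genes tested. Without the forms of complex IV subunits that belong to muscle or testis, the median was -0.51 over 42 genes. Of the 45, 6 fell: Sdhd, Cyc1, Cycs, Atp5g1, Atp5j and Atp5k. Another 3 rose, all of them tissue forms of complex IV subunits: Cox6a2, Cox6b2 and Cox7a1. Of these, Cox6a2 passed the filter through the null arrays alone. The other 36 did not pass.

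The 6 genes that fell were 13.3% of the 45, against 11.2% of all genes tested, and the 3 that rose were 6.67%, against 12.3%. In the null heads 23.5% of all genes changed in either direction. At this threshold the number of changed subunits thus lay near or under the background and is not a result about these genes. At an unadjusted p under 0.05, 17 of the 45 subunits were lower and 3 higher, while 19% of all genes were lower and 18.6% higher. On 9 of the 45 genes every null array lay below every wild type array, which was also so for 21.8% of all genes. Every null array lay above every wild type array on 4 genes, as for 20.6% of all genes, and on 32 the groups overlapped; they did not overlap on 42.4% of all genes. The probes of 38 of the 45 subunits stood above the 90th percentile of mean signal. All 1491 genes above that percentile had a median difference of -0.18, with 15.4% of them called lower, 4.56% called higher and 30.9% with every null array below every wild type array. The 38 subunits among them had a median of -0.53.

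**Figure D1:**
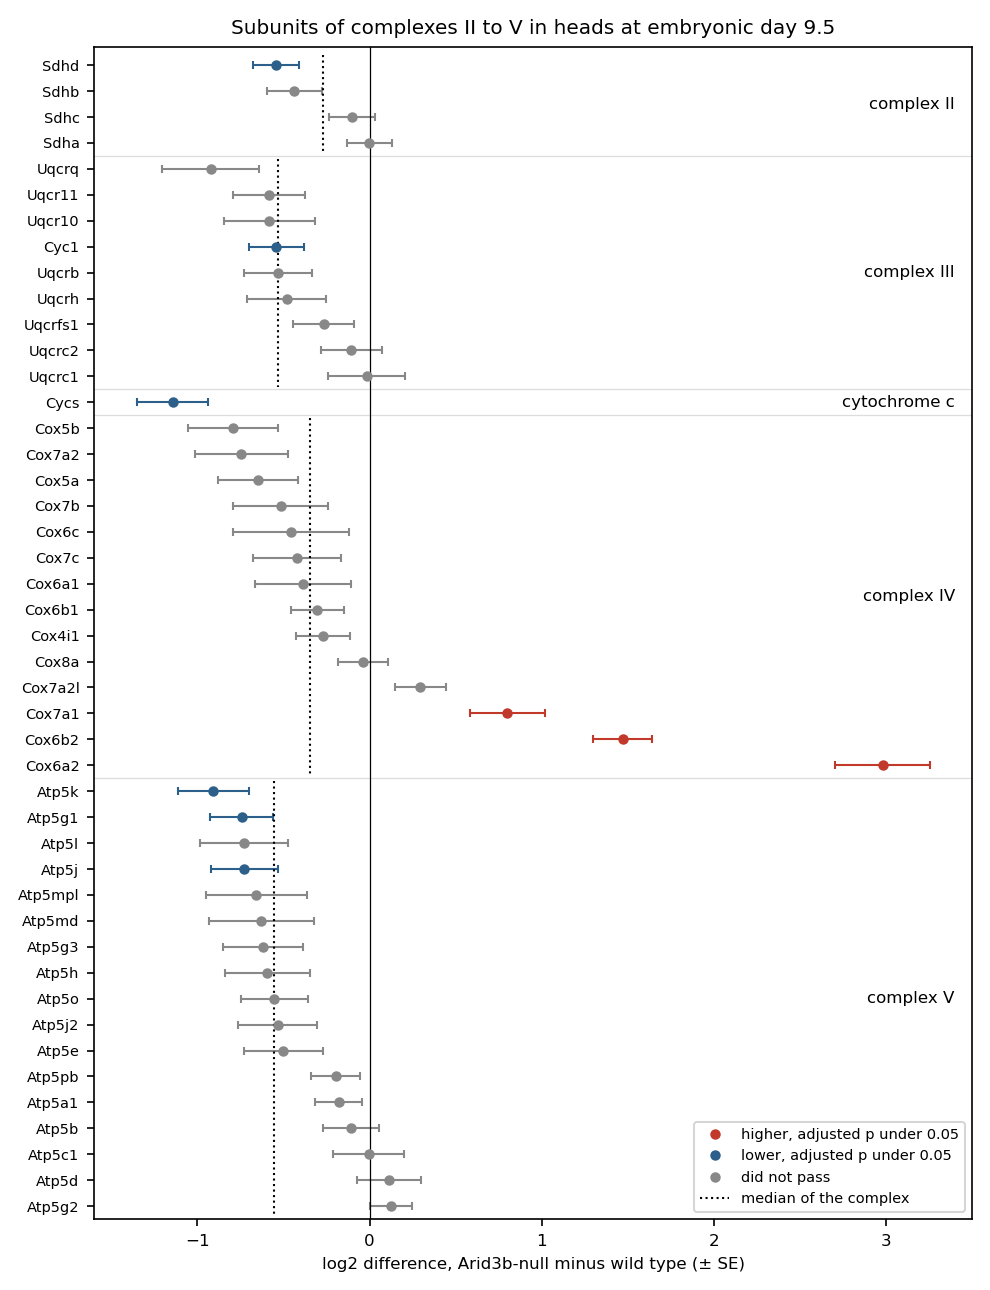
Log2 difference, Arid3b-null minus wild type, of each of the 45 tested subunits, by complex, with the standard error from limma as bars and the median of each complex as a dotted line (n = 3 arrays in each group). Nearly all points lie left of 0, with Cycs farthest left at -1.14, and the 3 genes that rose are Cox7a1, Cox6b2 and Cox6a2.

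Every complex had a median below 0. The median difference was -0.27 over the 4 genes of complex II, -0.53 over the 9 of complex III, -0.34 over the 14 tested of complex IV and -0.55 over the 17 of complex V, and the single gene of cytochrome c stood at -1.14. Leaving out the tissue forms, the 11 other genes of complex IV had a median of -0.42. All 4 tested genes of complex II and all 9 of complex III were below 0, as were 10 of 14 in complex IV and 15 of 17 in complex V. Subunits are not replicates, so no test was made between complexes.

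Both groups varied along the same direction as the difference between them. Taking each gene against its wild type mean, the median over the 42 genes without tissue forms was -0.54, -0.28 and -0.60 on null arrays 1, 2 and 3, against 0.27, 0.04 and -0.33 on wild type arrays 1, 2 and 3. Null array 2 thus stood slightly above wild type array 3, and the summary levels of the groups overlapped. Among the null arrays, array 2 was the highest for 38 of the 45 genes and array 3 the lowest for 31. Among the wild type arrays, array 1 was the highest for 39 of the 45 and array 3 the lowest for 40, beside 42.8% and 48.0% of all genes. Among genes above the 90th percentile of mean signal the same was so for 61.8% and 67.5%. The median SD between arrays of a subunit was 0.20 in null heads and 0.32 in wild type heads.

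Within slides the size of the difference changed while the sign of each median did not. On slides 1, 2 and 3 the median of all tested subunits was -0.88, -0.26 and -0.20, beside -0.06, -0.01 and -0.03 for all genes. Complex V had -0.94, -0.33 and -0.35, complex III -0.81, -0.31 and -0.19, complex IV -0.75, -0.21 and -0.03, and complex II -0.46, -0.21 and -0.11. Complex V had the lowest median on every slide. Without wild type array 1 the medians of complexes III, IV and V were -0.34, -0.18 and -0.37, and without wild type array 3 that of complex IV was -0.53. With quantile normalization the medians of complexes II, III and IV were -0.11, -0.34 and -0.20. With normexp background correction, followed by the same quantile step, they were -0.12, -0.32 and -0.22.

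**Figure D2:**
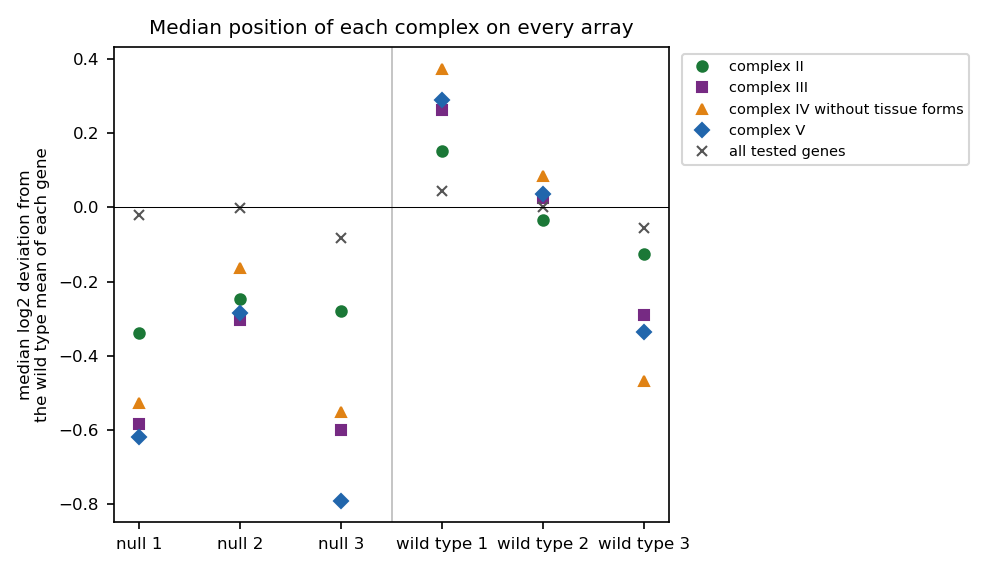
Median over the genes of each complex of the log2 deviation from the wild type mean of each gene, on each of the 3 Arid3b-null and 3 wild type arrays, with the same median over all tested genes as crosses. Complex IV is shown without its tissue forms. Complexes III, IV and V have the same order of arrays within each group. Null array 2 lies near wild type array 3 for complexes III and V and above it for complex IV (-0.16 against -0.47). All genes stay near 0.

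Cytochrome c had the largest fall. Cycs, which codes for the form of cytochrome c found outside the testis, had 3.56, 3.46 and 3.28 on the null arrays, against 4.86, 4.71 and 4.16 on the wild type arrays. Every null array lay below every wild type array, and the gene was 2.21-fold lower (-1.14 ± 0.21, limma adjusted p = 0.0101). The difference was -1.30, -1.25 and -0.88 within slides 1, 2 and 3. A second probe of Cycs had a difference of -1.27. Cycs was the only gene among the 6 that fell whose call was kept under each alternative setting and without each array in turn, with adjusted p between 7.94e-04 and 0.0459.

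The Cycs promoter is shown because the gene has the largest fall and cytochrome c is a textbook target of nuclear respiratory factor 1, which was first found through the rat cytochrome c promoter. The window is chr6:50566520-50566819 on the minus strand of GRCm38.p6, from RefSeq, a stretch of 300 bases around the gene start. Capitals mark ACGTG, the core of the hypoxia response element, on either strand.
Cycs: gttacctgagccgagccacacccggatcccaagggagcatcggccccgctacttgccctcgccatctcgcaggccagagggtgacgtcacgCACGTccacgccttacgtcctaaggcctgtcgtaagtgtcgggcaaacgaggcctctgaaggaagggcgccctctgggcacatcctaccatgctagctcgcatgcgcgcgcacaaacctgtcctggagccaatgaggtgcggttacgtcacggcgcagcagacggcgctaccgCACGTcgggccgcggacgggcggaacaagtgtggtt
ACGTG was found 2 times in this window, and no exact match to the other motifs searched was found. The stretch tcgcatgcgc differs by 1 letter from the long motif of nuclear respiratory factor 1, read on the other strand. Near matches of this kind were not counted.

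In complex II, which has no subunit coded in mitochondrial DNA, one of the membrane anchors fell while the flavoprotein did not. Sdhd, a membrane anchor that binds ubiquinone and heme, had 3.04, 2.98 and 2.96 on the null arrays, against 3.71, 3.47 and 3.43 on the wild type arrays. The groups did not overlap, and the arrays of the null group were close together (-0.54 ± 0.13, limma adjusted p = 0.0287). Sdhb, the iron-sulfur subunit, had 4.50, 4.62 and 4.44 on the null arrays, against 5.22, 4.91 and 4.75 on the wild type arrays. These did not overlap either, but the difference did not pass (-0.44 ± 0.16, limma adjusted p = 0.0917). A second probe of Sdhb, counted on its own, did pass as lower (-0.59, limma adjusted p = 0.0357). Sdhb also passed with the mean over its probes (-0.51, adjusted p = 0.0372), with normexp (0.0499) and with array weights (0.02). It passed without wild type array 3 (0.0347) as well, and did not pass under the other 12 alternatives.

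Sdha, the flavoprotein that oxidises succinate, had 3.01, 2.95 and 2.92 on the null arrays, against 3.10, 2.97 and 2.81 on the wild type arrays. Sdhc, the other membrane anchor, had 2.41, 2.48 and 2.70 on the null arrays, against 2.67, 2.62 and 2.61 on the wild type arrays. For both genes the groups overlapped, with differences of -0.00 ± 0.13 for Sdha and -0.10 ± 0.13 for Sdhc. The log2 ratio of Sdhd to Sdha, taken within each array, differed by -0.54 between the groups, and by -0.58, -0.47 and -0.57 within slides 1, 2 and 3. The ratio of Sdhb to Sdha differed by -0.44; these ratios were chosen after the values were seen, and no test was made. The call of Sdhd was lost without null array 1, 2 or 3 and without wild type array 1 or 2 (adjusted p from 0.0711 to 0.0951), with quantile normalization (0.0659), with the deposited value table (0.106) and with no filter on dim probes (0.0619).

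The Sdhd promoter is shown as the window of a gene that fell and that holds several of the motifs searched. It is chr9:50603800-50604099 on the minus strand of GRCm38.p6, from RefSeq. Capitals mark matches to the long motif of nuclear respiratory factor 1, to its short motif TGCGCA, to the motif CCGGAAG of ETS factors such as GABP, and to the motif AAGGTCA of estrogen-related receptors, on either strand.
Sdhd: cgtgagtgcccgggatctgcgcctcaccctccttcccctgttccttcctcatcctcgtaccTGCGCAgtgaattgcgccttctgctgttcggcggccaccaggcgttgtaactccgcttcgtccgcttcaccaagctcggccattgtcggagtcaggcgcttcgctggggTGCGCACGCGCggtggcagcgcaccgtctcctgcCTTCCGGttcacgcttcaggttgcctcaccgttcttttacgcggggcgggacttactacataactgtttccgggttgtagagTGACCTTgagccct
The long motif of nuclear respiratory factor 1 was found 1 time and the short one 2 times, one of these overlapping the long motif, with 1 match each to the ETS and estrogen-related receptor motifs. Genes that did not pass held more of these matches. The Sdha window (difference -0.00) held the long motif 3 times and the short one 2 times. That of Uqcrc1 (-0.02) held each 2 times. The relation of the matches to the differences was not tested.

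In complex III the single fall was that of Cyc1, cytochrome c1, the heme protein that passes electrons to cytochrome c. Cyc1 had 4.08, 4.05 and 4.26 on the null arrays, against 4.74, 4.85 and 4.43 on the wild type arrays. The groups did not overlap, although null array 3 and wild type array 3 were close (-0.54 ± 0.16, limma adjusted p = 0.0475). The call was the weakest of the 6. With the replicate block adjusted p was 0.0753, with median centring 0.0623, with normexp 0.0733, with quantile normalization 0.14 and with no filter 0.0941, and it was 0.181 in the deposited values. Without null array 1, 2 or 3, or without wild type array 1 or 2, it lay between 0.0845 and 0.156.

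The large core proteins of complex III lay near 0, and its small subunits lay lower. Uqcrc1 and Uqcrc2, the large core proteins that face the matrix, had differences of -0.02 ± 0.22 and -0.11 ± 0.17, and Uqcrfs1, the Rieske iron-sulfur protein, had -0.27 ± 0.18. Uqcrc1 had 3.38, 3.05 and 3.58 on the null arrays, against 3.14, 3.17 and 3.76 on the wild type arrays. Among the 4 core genes, Cyc1 at -0.54 included, the median was -0.19, and among the 5 small subunits it was -0.58. None of the 5 small subunits passed, and on 3 of them the groups overlapped. Subunits were placed in these groups after their values were seen, and no test was made between core and small subunits.

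The small subunits Uqcrb, Uqcrh (the hinge protein near cytochrome c1), Uqcrq, Uqcr10 and Uqcr11 ranged from -0.92 to -0.48. Uqcrq had 4.23, 4.69 and 4.13 on the null arrays, against 5.74, 5.36 and 4.72 on the wild type arrays. The groups were apart by a narrow gap, between null array 2 and wild type array 3, and the difference did not pass (-0.92 ± 0.28, limma adjusted p = 0.0552). Uqcrh had 4.98, 5.31 and 4.97 on the null arrays, against 5.98, 5.56 and 5.16 on the wild type arrays, and its groups overlapped. The array of wild type replicate 3 was the lowest of its group for 8 of the 9 genes of complex III.

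In complex IV 3 of the 6 tissue forms of subunits rose, the other 3 were not tested, and no widely expressed subunit passed the test. Of all genes tested, 12.3% rose and 11.2% fell. Of the 10 widely expressed subunits, all had a difference below 0, from -0.79 to -0.04 with a median of -0.44, and none passed. For each of the 10 the groups overlapped, while they did not overlap on 42.4% of all genes. Cox5b, the zinc-binding subunit, had 3.78, 4.16 and 3.73 on the null arrays, against 5.06, 4.85 and 4.14 on the wild type arrays. It had the lowest difference of the complex (-0.79 ± 0.26, limma adjusted p = 0.0689), and only wild type array 3 lay within the range of the null arrays.

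Cox4i1, the largest nuclear-coded subunit, had -0.27 ± 0.16, and Cox5a, a matrix-side subunit, had -0.65 ± 0.23. Cox6c, Cox7b and Cox7c, small subunits that span the membrane, had -0.46 ± 0.34, -0.52 ± 0.28 and -0.42 ± 0.25. Cox8a, the widely expressed form of another small subunit, had 6.50, 6.61 and 6.34 on the null arrays, against 6.66, 6.54 and 6.36 on the wild type arrays (-0.04 ± 0.15). Its counterparts Cox8b, the form of heart and skeletal muscle, and Cox8c, a testis form, were well above background on 0 of 6 arrays. Cox7b2, a testis form of Cox7b, was well above background on 1 null array and 0 wild type arrays. These 3 genes were therefore not tested.

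The clearest rise was that of Cox6b2, known as the testis form of the subunit that joins the monomers of complex IV. It had 1.69, 1.89 and 1.73 on the null arrays, against 0.34, 0.01 and 0.55 on the wild type arrays, 2.77-fold higher (1.47 ± 0.17, limma adjusted p = 0.00265). The groups were far apart and the null arrays were close together. The widely expressed Cox6b1 had 2.35, 2.51 and 2.24 on the null arrays, against 2.84, 2.71 and 2.46 on the wild type arrays, and did not pass (-0.30 ± 0.15). Cox6b2 was higher by 1.35, 1.88 and 1.18 within slides 1, 2 and 3, and it kept its call under each alternative setting and without each array in turn.

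Cox6a2, the heart and skeletal muscle form of subunit VIa, was dim in both groups. It had -3.82, -2.80 and -3.60 on the null arrays, against -6.19, -6.61 and -6.37 on the wild type arrays, and passed the test as higher (2.98 ± 0.28 in the processed signal, limma adjusted p = 0.00128). All 3 null arrays were well above background but only 2 of the 3 wild type arrays were, and the dimmest probe well above background had -6.65, -6.80 and -7.22 on the null arrays, against -6.87, -6.23 and -7.00 on the wild type arrays. Wild type array 2 thus lay below its own lowest measurable level, and the gene passed the filter through the null arrays alone, so the size of the difference is not a measured fold. Without wild type array 2 it was 2.87 (adjusted p = 0.00429) and with normexp 1.02 (adjusted p = 0.00503), and under the filter on all 6 arrays the gene was not tested. Cox6a1, the widely expressed form, had 6.52, 7.03 and 6.45 on the null arrays, against 7.43, 7.23 and 6.50 on the wild type arrays, and did not pass (-0.38 ± 0.28).

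Cox7a1, the heart and skeletal muscle form of subunit VIIa, had -0.20, 0.24 and -0.25 on the null arrays, against -0.66, -0.71 and -1.25 on the wild type arrays. The groups did not overlap, and the gene was 1.74-fold higher (0.80 ± 0.22, limma adjusted p = 0.0382). Its call was lost without null array 1, 2 or 3 and without wild type array 1 or 2 (adjusted p from 0.0563 to 0.112), and with no filter on dim probes (0.0797). The widely expressed Cox7a2 had 3.59, 4.04 and 3.31 on the null arrays, against 4.78, 4.45 and 3.95 on the wild type arrays, with overlapping groups (-0.74 ± 0.27, limma adjusted p = 0.0893). Cox7a2l, a related protein that joins complexes III and IV into supercomplexes, had 5.0, 5.15 and 5.10 on the null arrays, against 5.01, 4.73 and 4.63 on the wild type arrays. It did not pass (0.29 ± 0.15, limma adjusted p = 0.195) but did with normexp (0.47, adjusted p = 0.0163) and with quantile normalization (0.48, adjusted p = 0.0304), settings that share the quantile step.

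Since heart muscle is a known source of such forms, its markers were counted beside them. Of 16 heart markers, 12 were tested, 1 (Tbx20) fell and 0 rose, against 11.2% of all genes lower and 12.3% higher. Myl2, Myl7, Pln and Ryr2 did not pass the filter on dim probes in either group. The median difference of the 12 was -0.52, with 9 below 0 and 3 above 0. Within slides 1, 2 and 3 the median was 0.15, -1.12 and -0.50, so its sign was not the same on each slide. Taken against the wild type mean of each marker, the median was -0.64, 0.66 and 0.07 on wild type arrays 1, 2 and 3. On the null arrays it was -0.54, -0.62 and -0.62. On 4 of them every null array lay below every wild type array, as for 21.8% of all genes. The summed level of the 12, in units of the 75th percentile signal, was 2.20 to 2.42 on the null arrays and 1.61 to 5.68 on the wild type arrays. The part of muscle cells in the rises of Cox6a2 and Cox7a1 was not tested. In RNA from whole heads, fewer cells of a type and less RNA per cell cannot be told apart, for these and for all values given here.

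**Figure D3:**
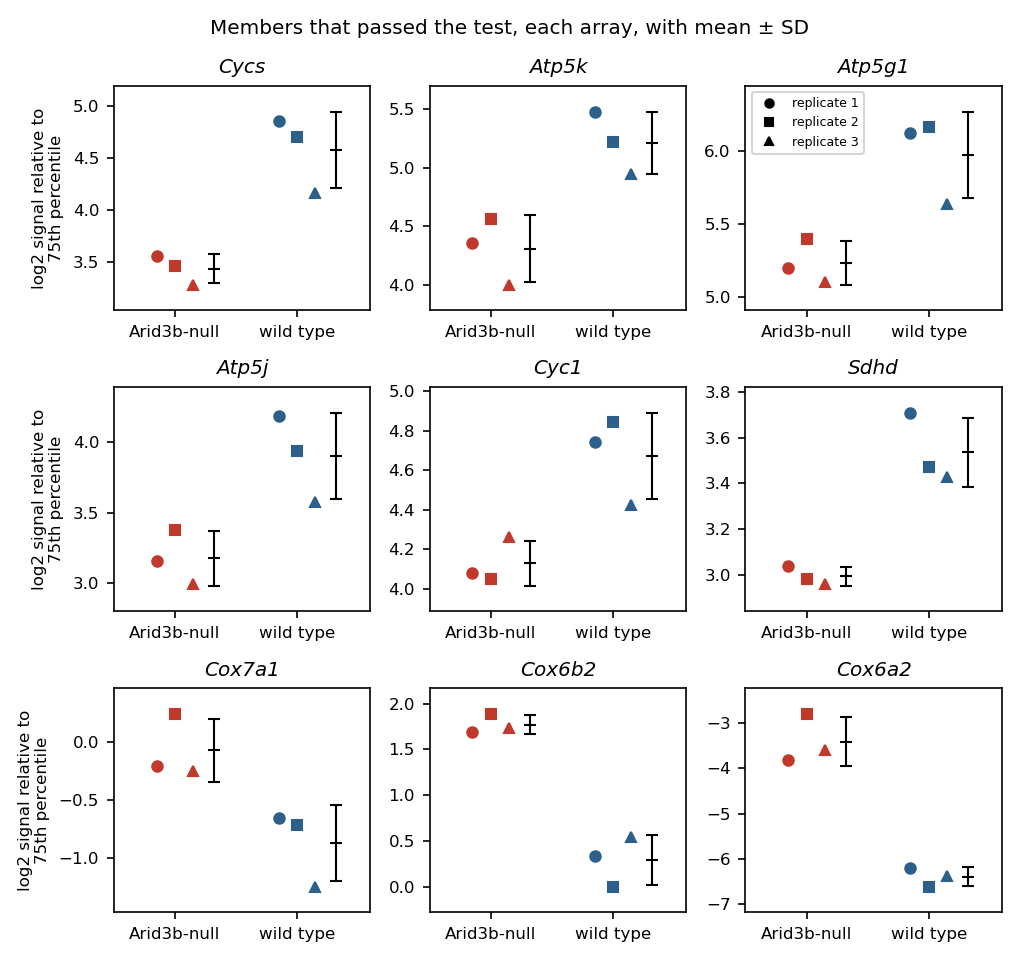
Log2 signal relative to the 75th percentile of the array for the 9 subunits that passed the test, on each Arid3b-null (left) and wild type (right) array, with the mean ± SD of each group (n = 3); each panel has its own scale. In all 9 the groups do not overlap, and wild type replicate 3 is the wild type array nearest to the null arrays in the 6 genes that fell.

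In complex V 3 of 17 genes fell, while 11.2% of all genes did: 1 of the 3 genes of the c ring, 1 of the 4 of the peripheral stalk, 1 of the 5 small membrane subunits and 0 of the 5 of the F1 head and central stalk. Atp5k, subunit e, which takes part in holding ATP synthase dimers together, had 4.36, 4.56 and 4.0 on the null arrays, against 5.47, 5.22 and 4.94 on the wild type arrays. The groups did not overlap, and it was 1.87-fold lower (-0.91 ± 0.20, limma adjusted p = 0.021). Without null array 1 or 3, or without wild type array 1 or 2, adjusted p was 0.057 to 0.0712. Atp5j, coupling factor 6 of the peripheral stalk, had 3.16, 3.37 and 2.99 on the null arrays, against 4.19, 3.94 and 3.58 on the wild type arrays. Its groups did not overlap (-0.73 ± 0.20, limma adjusted p = 0.0373). Without null array 1, 2 or 3, or without wild type array 1 or 2, adjusted p was 0.0621 to 0.122, and it was 0.0562 with the deposited value table and 0.0779 with no filter.

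Among the 5 subunits of the F1 head and central stalk the median was -0.11. Atp5a1 and Atp5b, the alpha and beta subunits that form the catalytic head, had -0.18 ± 0.13 and -0.11 ± 0.16. Atp5c1 and Atp5d, the gamma and delta subunits of the central stalk, had -0.00 ± 0.21 and 0.11 ± 0.18, while Atp5e, the small epsilon subunit, had -0.50 ± 0.23. None of the 5 passed. The 4 genes of the peripheral stalk (Atp5h, Atp5j, Atp5o and Atp5pb) had a median of -0.57, from -0.73 for Atp5j to -0.20 for Atp5pb, the membrane-bound b subunit. The 5 small membrane subunits (Atp5j2, Atp5k, Atp5l, Atp5md and Atp5mpl) had a median of -0.66 and ranged from -0.91 for Atp5k to -0.53 for Atp5j2. Subunits were placed in these groups after their values were seen, and no test was made between the groups.

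The c ring is made from 3 genes that code for the same mature protein behind different mitochondrial targeting peptides, and 1 of these genes fell. Atp5g1 had 5.20, 5.40 and 5.11 on the null arrays, against 6.12, 6.17 and 5.64 on the wild type arrays, with no overlap (-0.74 ± 0.18, limma adjusted p = 0.0287). Atp5g3 had 5.23, 5.45 and 5.01 on the null arrays, against 6.17, 5.98 and 5.39 on the wild type arrays, with wild type array 3 inside the null range (-0.62 ± 0.23, limma adjusted p = 0.098). Atp5g2 had 6.99, 7.17 and 7.04 on the null arrays, against 6.99, 6.92 and 6.92 on the wild type arrays. Null array 1 and wild type array 1 were nearly level for Atp5g2, and it did not pass (0.12 ± 0.12, limma adjusted p = 0.508). The call of Atp5g1 was lost without null array 1, 2 or 3, without wild type array 1 or 2 (adjusted p from 0.0574 to 0.103) and with no filter on dim probes (0.0631).

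The promoters of Atp5g1 and Atp5g2 are set side by side because these genes code for the same mature subunit and had differences of opposite sign. They are chr11:96075582-96075881 for Atp5g1 and chr15:102670998-102671297 for Atp5g2, both on the minus strand of GRCm38.p6, from RefSeq. Capitals mark ACGTG on either strand and, in Atp5g2, also the overlapping matches to the long and short motifs of nuclear respiratory factor 1.
Atp5g1: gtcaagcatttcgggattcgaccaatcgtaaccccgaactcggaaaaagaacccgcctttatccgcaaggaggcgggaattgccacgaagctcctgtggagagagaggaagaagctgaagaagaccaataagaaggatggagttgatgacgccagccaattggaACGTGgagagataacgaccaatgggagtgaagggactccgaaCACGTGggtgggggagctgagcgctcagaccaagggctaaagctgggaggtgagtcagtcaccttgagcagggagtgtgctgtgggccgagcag
Atp5g2: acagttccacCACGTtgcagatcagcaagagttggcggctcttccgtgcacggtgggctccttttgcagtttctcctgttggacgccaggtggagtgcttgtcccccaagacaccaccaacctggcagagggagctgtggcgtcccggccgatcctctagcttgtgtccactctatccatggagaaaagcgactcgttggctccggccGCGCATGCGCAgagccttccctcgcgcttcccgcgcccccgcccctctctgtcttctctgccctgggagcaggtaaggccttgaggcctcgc
ACGTG was found 3 times on the strands of the Atp5g1 window, 2 of them in the palindrome CACGTG, and 1 time in that of Atp5g2, while the motifs of nuclear respiratory factor 1 were found in the Atp5g2 window and not in that of Atp5g1. The window of Atp5g3, whose difference was -0.62, held the long motif 1 time and ACGTG 2 times. The relation of these motifs to the differences was not tested.

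Ratios between related subunits within each array describe how unequal these differences were. They were chosen after the values were seen, mostly from genes whose groups were already known to be apart, so no test was made. The log2 ratio of Cox6b2 to Cox6b1 was higher in null heads by 1.77, that of Cox7a1 to Cox7a2 by 1.55 and that of Cox7a2l to Cox7a2 by 1.04. The ratio of Atp5g1 to Atp5g2 differed by -0.87 and that of Atp5g3 to Atp5g2 by -0.74. Within slides 1, 2 and 3 the ratio of Cox7a1 to Cox7a2 differed by 1.65, 1.35 and 1.63, and that of Atp5g1 to Atp5g2 by -0.92, -1.03 and -0.65. The ratio of Cox6a2 to Cox6a1 was higher by 3.37, a size that carries the same limit as Cox6a2 itself, whose signal in wild type heads was near or below the lowest measurable level. A ratio within an array shows unequal change and does not say which gene moved.

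**Figure D4:**
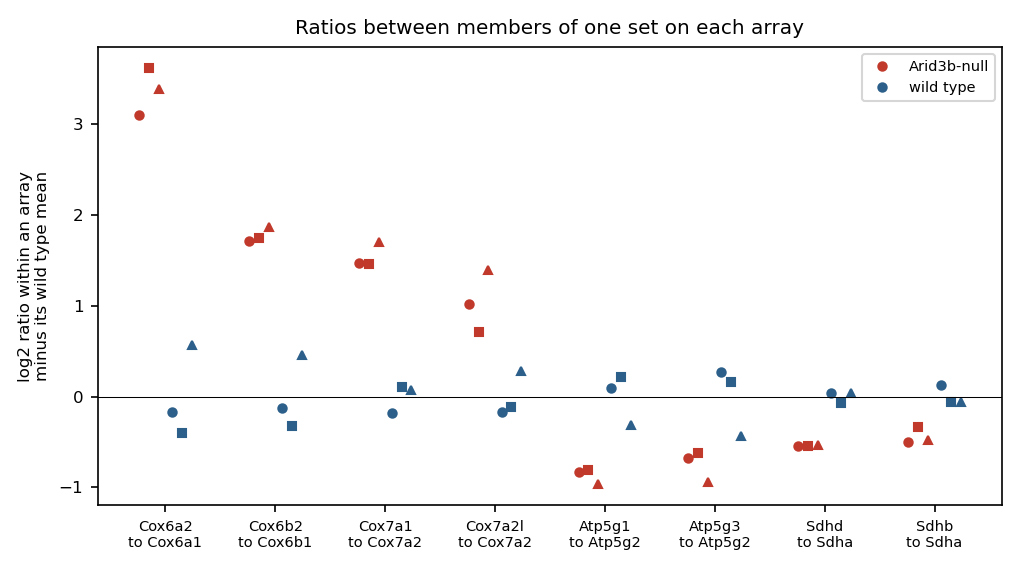
Log2 ratio between related subunits on each array, minus the wild type mean of that ratio, for the 3 Arid3b-null (red, left of each pair) and 3 wild type (blue) arrays; circles, squares and triangles are replicates 1, 2 and 3. The largest difference, 3.37 for Cox6a2 to Cox6a1, rests on dim wild type signal. The others run from 1.77 for Cox6b2 to Cox6b1 down to -0.87 for Atp5g1 to Atp5g2.

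Promoter windows were present in the RefSeq table for 37 of the 48 genes, as 40 windows. They were searched for exact matches on both strands, beside all 32851 windows of the same length. The long motif of nuclear respiratory factor 1 was in 10 of the 40 windows (25%) and in 4.60% of all windows. CCGGAAG was in 13 (32.5%), against 8.86% of all, and TGCGCA, a palindrome that can overlap the long motif, in 8 (20%), against 7.76%. AAGGTCA was in 5 (12.5%), against 4.72%, AAGATGGC, the YY1 motif, in 3 (7.5%), against 2.75%, and ACGTG in 12 (30%), against 19.6%. The 5 genes that fell and had windows, 6 windows in all, held the long motif in 2 (Atp5k and Sdhd), CCGGAAG in 3 (Atp5j, Atp5k and Sdhd) and ACGTG in 2 (Atp5g1 and Cycs). A match describes the letters of the window and not binding.

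Other lists of mitochondrial genes were counted in the same fit, against 11.2% of all genes lower and 12.3% higher. Of the regulators of mitochondrial gene expression, 16 were tested, 2 fell and 3 rose, with a median of -0.03. Nrf1, which codes for nuclear respiratory factor 1, had 0.29, 0.14 and 0.26 on the null arrays, against 1.33, 1.25 and 1.46 on the wild type arrays (-1.12 ± 0.13, limma adjusted p = 0.00262). Its groups were far apart. Tfb2m, a mitochondrial transcription factor, fell (-0.92), and Ppargc1b and Ppargc1a, coactivators of mitochondrial genes, rose (1.66 and 0.56).

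Of 37 assembly factors of complexes II to V, 33 were tested, 8 fell and 0 rose, with a median of -0.20. Sdhaf1, which helps load iron-sulfur clusters into complex II, had -0.81, and Sco1 and Cox19, which serve copper delivery to complex IV, had -1.02 and -1.18. Of 36 subunits of complex I, 5 fell and 0 rose (median -0.33), and Ndufab1, the mitochondrial acyl carrier protein, had -1.40. In the tricarboxylic acid cycle 1 of 16 genes fell (Cs, citrate synthase, -0.46) and 0 rose, with a median of -0.20. Of 18 genes of protein import into mitochondria 8 fell and 0 rose, with a median of -0.52, close to that of the respiratory subunits.

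Markers of blood and vessels were counted in the same way, against 11.2% of all genes lower and 12.3% higher. Of 14 erythroid markers 13 were tested and 1 (Klf1) fell, with summed levels of 492 to 1011 on the null arrays and 638 to 864 on the wild type arrays. Of 12 endothelial markers 0 fell and 0 rose, with summed levels of 31.6 to 34.8 on the null arrays and 31.8 to 35.0 on the wild type arrays. The part of blood, vessel or other cells in the values of the subunits was not tested.

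Probes of a gene gave like values. Of 73 probes 69 passed the filter, and 59 of these had a difference below 0; counted one by one, 8 passed as lower and 3 as higher. For 16 of the 17 genes with several such probes all had one sign, the exception being Atp5c1, and the largest gap between probes of a gene was 0.33. Many of these subunits have processed pseudogenes or close copies in the mouse genome, and which transcripts each probe binds was not tested.

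The number of subunits called depended on single arrays, most of all on wild type array 3. Without that array 26 of the 45 tested subunits were lower and 3 higher, while 17.9% of all genes were lower and 17% higher. Without any other single array 1 or 2 were lower and 2 higher; without wild type array 1, for one, 5.92% of all genes were lower and 8.42% higher. With the replicate block, which takes out what the arrays of a slide share, 10 subunits were lower and 3 higher, against 11.8% and 12.9% of all genes. Uqcrq, Cox5b, Cox7a2, Atp5g3 and Atp5l passed in addition and Cyc1 no longer did. With array weights 28 were lower and 3 higher, against 23.2% and 21.7% of all genes. With normexp 11 were lower and 4 higher, against 10.4% and 12.6%, and in the deposited value table, which holds 29 of the subunits, 3 were lower and 3 higher, against 10.6% and 14.4%.

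**Figure D5:**
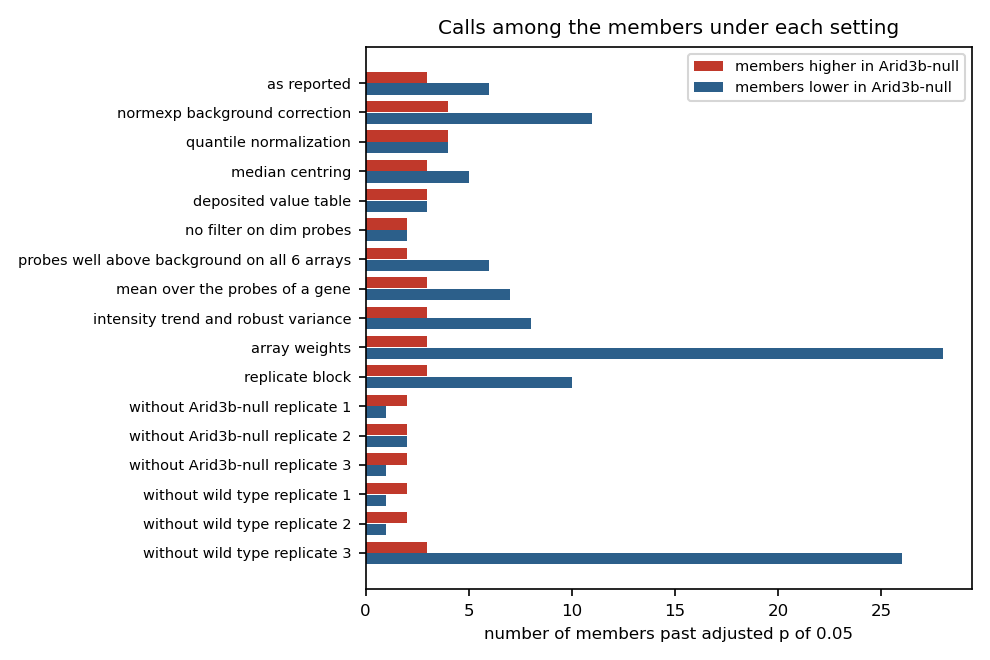
Number of the 45 tested subunits called higher (red) and lower (blue) in Arid3b-null heads at an adjusted p of 0.05 under each setting. The count of lower calls runs from 1 to 28, while that of higher calls stays between 2 and 4.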

How the data were processed

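RNA was measured on 6 one-colour Agilent arrays, 3 of Arid3b-null and 3 of wild type heads. Spots were quantified in Agilent Feature Extraction (10.7.3.1), and each deposited scanner file gives the background-subtracted, detrended intensity of each spot, per the file headers. The authors also deposited a table of log2 values for 24181 rows, of which 24158 matched probes; its column medians are 6.76 to 6.77, and its scaling is unknown.

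Values are log2 of the processed intensity minus the 75th percentile over non-control spots of the array. Outlier-flagged spots (84 to 156 per array) and control spots were left out. Through RefSeq accessions (GRCm38.p6 table), 26424 of 39429 probes had 1 gene symbol, 0 had several and 13005 had none. The filter kept 26288 probes that had a value on 5 or more arrays and were well above background in 1 group on each of its 3 arrays; a gene was represented by its brightest kept probe. Testing used lmFit and eBayes of limma (3.58.1, under R 4.3.3) with Benjamini-Hochberg adjustment; the steps were tested on simulated data. The number of arrays limits the precision.

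Alternatives of processing were normexp, quantile normalization, median centring, the deposited table, filters on dim probes and the mean over probes. Alternatives of the fit were a robust intensity trend, array weights, the replicate block and leaving out each array. Normexp (offset 50) used median intensities because the files analysed here hold no mean ones, a change made after seeing the data. It was followed by quantile normalization, so it shares that step with the quantile alternative. Replicate numbers match slides and scans, per the file headers. The deviations of same-numbered arrays correlated at -0.20, 0.15 and 0.42. Those of arrays on different slides ran from -0.52 (null array 2 with wild type array 3) to 0.49 (null array 2 with wild type array 1). Counting single probes and the ratios between subunits were added after seeing the data. Each array value is given for genes that passed, for complex II, Cyc1 and Cycs, for isoform sets and for the brightest, highest and lowest gene of a complex; of other lists, up to 4 genes with the smallest p are named. The members and lists were chosen with earlier results of these data known.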

Additional observations from a re-analysis of the deposited data

How the results depend on the processing

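The direction of each complex median and the calls of Cycs and Cox6b2 held under every alternative tried, while counts of calls moved. The call of Cox6a2, which passed the filter through the null arrays alone, held where the gene was tested. Under the filter on all 6 arrays Cox6a2 was not tested. The number of genes changed (3506) was 2270 with no filter on dim probes, 6685 with array weights, and 1516 to 5199 when single arrays were left out. Of the subunits, 9 changed, and 15 did with normexp, 4 with no filter, 31 with array weights and 3 to 29 when single arrays were left out. Those lower (6) were 11 with normexp, 3 with the deposited table, 2 with no filter, 28 with array weights and 10 with the replicate block, and 1 to 26 when single arrays were left out, 26 without wild type array 3. The median difference ran from -0.38 to -0.11 for complex II, -0.68 to -0.32 for III, -0.53 to -0.17 for IV and -0.72 to -0.37 for V.

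Signs turned only for genes near 0. With normexp Sdha was 0.13, Sdhc 0.0648, Uqcrc1 0.14, Uqcrc2 0.0605, Atp5a1 0.0116 and Atp5c1 0.16. With quantile normalization Sdha was 0.15, Sdhc 0.0185, Uqcrc1 0.14, Uqcrc2 0.0764 and Atp5c1 0.19. With the deposited table Uqcrc1 was 0.15 and Atp5c1 0.13, with array weights Uqcrc1 was 0.15, and with the mean over probes Atp5c1 was 0.021. Leaving out single arrays gave Sdha -0.0731 to 0.0673, Uqcrc1 -0.14 to 0.18, Cox8a -0.12 to 0.0362, Atp5c1 -0.19 to 0.15 and Atp5d -0.0010 to 0.29. The cause was not tested. Same-numbered arrays share a slide, but only 2 of the 3 pairs correlated above 0.1. Arrays on different slides reached 0.49, and the labels name no pairing of embryos. Over the 45 genes, 703 alternative values left 575 on the same side, with 58 newly past the threshold, 42 no longer past it and 28 of opposite sign. Dim genes such as Cox6a2 are limited by background.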
